A study of Mus musculus with 24 samples.

Results

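The 10 genes described here are the ubiquitin-specific protease gene Usp2 and 9 genes named as outputs or output regulators of the circadian clock, read in mouse liver under 4 diets. Of the 18193 genes named on the array, 13385 passed a filter on low values, and all 10 were among them. They were chosen from earlier results of the same arrays, in which Usp2 and several of the others differed between mice kept on pellets and mice on the other diets. Differences from the pellet diet are therefore given for these genes as a description, with an error and no test. Only the closing section counts how many passed a threshold there, to show how that count moved with the processing. Differences among the other 3 diets, and between the batches, were tested.

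The circadian clock of the liver is a feedback loop in which CLOCK and BMAL1 switch on genes through E-box sequences, among them those of their own repressors PER and CRY. The loop also drives output regulators, which bind a D-box and pass the rhythm on to enzymes of lipid, drug and amino acid metabolism. In liver the phase of this rhythm follows feeding time, so the level of such a gene depends on the hour at which the tissue is taken.

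Liver RNA of 24 female NMR-1 mice was read on Affymetrix arrays, 1 for each mouse. Feeding began at an age of 8 weeks and lasted 2 weeks with free access to food, and the livers were processed in 2 batches of 3 mice per diet. The pellet group (6 mice) stayed on the feed on which all mice had been raised, the chimpanzee group (6 mice) was given fruit, vegetables and yogurt, the cafeteria group (6 mice) cooked canteen meals, and the fast food group (6 mice) nothing but fast food. The question of the study was how liver expression under the human diets, cafeteria and fast food pooled, compares with that under the chimpanzee diet. Neither the hour of dissection nor the hours at which mice ate were stated in the sources used here. All levels are log2 expression values as deposited, so a difference of 1 is a 2-fold difference, and levels were compared between mice for 1 gene at a time. In dissected liver, fewer cells of a type and less RNA per cell cannot be told apart.

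No array was a copy of another (r between arrays from 0.925 to 0.996). The 90th percentile of an array's values was 6.50 ± 0.07 (SD, n = 12) in batch 1 and 6.04 ± 0.20 (n = 12) in batch 2, and it ran from 5.66 to 6.61 over all arrays. All 7 of the 7 hepatocyte markers measured passed the filter, with a mean level of 10.72 to 11.31 in single mice, and 0 of them passed in limma in any of 4 diet comparisons (at most 2 had an unadjusted p under 0.05). Fat cell markers were read by 1 gene, which lay below the filter in every diet.

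To show the sequence on which clock factors act, the 250 bases upstream of an annotated start (RefSeq, GRCm38.p6) were taken for 8 of the genes, in 9 windows. Wee1 and Bhlhe40 had no window in the source used, so their sequence was not searched. Each window was searched on both strands for the E-box CACGTG, its variant CACGTT, the D-box TTATGTAA or TTACGTAA, and the ROR element TAGGTCA. The E-box was present in 4 of the 9 windows, of Tef (both windows), Bhlhe41 and Ciart, against 6.02% of 32851 windows over all genes. The ROR element was present in that of Nfil3 (2.23% of all windows), and the variant (3.85%) and the D-box (0.931%) in 0. These 3 genes are shown, since Ciart and Tef hold the E-box and Usp2 had the widest gap between diets. Capitals mark the E-box, and each sequence runs 5′ to 3′ on the strand of its gene. Ciart lies on the minus strand at chr3:95882229-95882478 and holds 3 matches, at 116, 58 and 44 bases before the start. The Tef windows are on the plus strand at chr15:81802423-81802672 and, inside the gene before a second start, at chr15:81811164-81811413, with 1 match each, at 127 and 138 bases before their starts. The Usp2 window, on the plus strand at chr9:44084670-44084919, precedes a start inside the gene and holds 0 matches. A match describes letters only, and the binding of a factor was not measured.
Ciart: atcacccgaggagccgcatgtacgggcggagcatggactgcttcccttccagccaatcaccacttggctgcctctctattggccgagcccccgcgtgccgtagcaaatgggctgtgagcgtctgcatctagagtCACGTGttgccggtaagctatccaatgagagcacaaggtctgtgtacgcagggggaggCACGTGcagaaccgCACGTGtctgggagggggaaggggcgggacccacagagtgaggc
Tef, first start: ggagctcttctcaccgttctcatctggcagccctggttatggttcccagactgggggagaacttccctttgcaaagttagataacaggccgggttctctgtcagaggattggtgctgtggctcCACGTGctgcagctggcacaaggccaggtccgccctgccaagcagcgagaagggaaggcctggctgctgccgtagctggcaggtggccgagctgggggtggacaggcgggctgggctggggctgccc
Tef, second start: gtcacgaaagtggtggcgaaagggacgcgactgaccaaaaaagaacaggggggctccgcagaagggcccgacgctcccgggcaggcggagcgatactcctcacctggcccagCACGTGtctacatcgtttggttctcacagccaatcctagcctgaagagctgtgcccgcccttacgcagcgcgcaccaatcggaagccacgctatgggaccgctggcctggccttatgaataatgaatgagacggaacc
Usp2: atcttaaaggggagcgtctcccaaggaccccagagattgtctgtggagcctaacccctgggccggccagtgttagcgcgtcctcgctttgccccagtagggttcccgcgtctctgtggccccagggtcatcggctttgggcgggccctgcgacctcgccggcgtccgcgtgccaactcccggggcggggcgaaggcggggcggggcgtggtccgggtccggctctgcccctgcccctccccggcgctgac

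Usp2 encodes a protease that removes ubiquitin from other proteins, and its messenger RNA is known to cycle in liver. Under the pellet diet its level ran from 3.84 to 5.46 in single mice, with a median of 4.55. Under the chimpanzee diet it ran from 6.50 to 7.55 (median 6.98), under cafeteria food from 6.69 to 7.91 (median 7.23) and under fast food from 6.51 to 7.46 (median 6.73). All 6 pellet mice lay below all 18 others, with no overlap in either batch. The same gap was present in 25 of the 13385 genes (0.187%), and 42 genes (0.314%) had all pellet mice above all others. Usp2 was the 1 member with such a gap, and the other 9 overlapped.

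Means of Usp2 were 4.65 ± 0.66 (pellet), 6.99 ± 0.43 (chimpanzee), 7.19 ± 0.46 (cafeteria) and 6.86 ± 0.35 (fast food; SD, n = 6 each). The human diets lay 2.37 ± 0.21 (SE) above pellet, which is 5.19-fold (95% interval 3.85 to 6.99). The chimpanzee diet lay 2.34 ± 0.21 above pellet, or 5.05-fold (3.74 to 6.83). Both comparisons share the pellet mice. In batch 1 these differences were 2.40 and 2.50, and in batch 2 they were 2.35 and 2.18. Among the 3 other diets the means followed each other within less than 1 SD. A second probe set of Usp2 followed the first across the 24 mice (r = 0.96), and its human minus pellet difference was 1.36 ± 0.18.

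**Figure D1:**
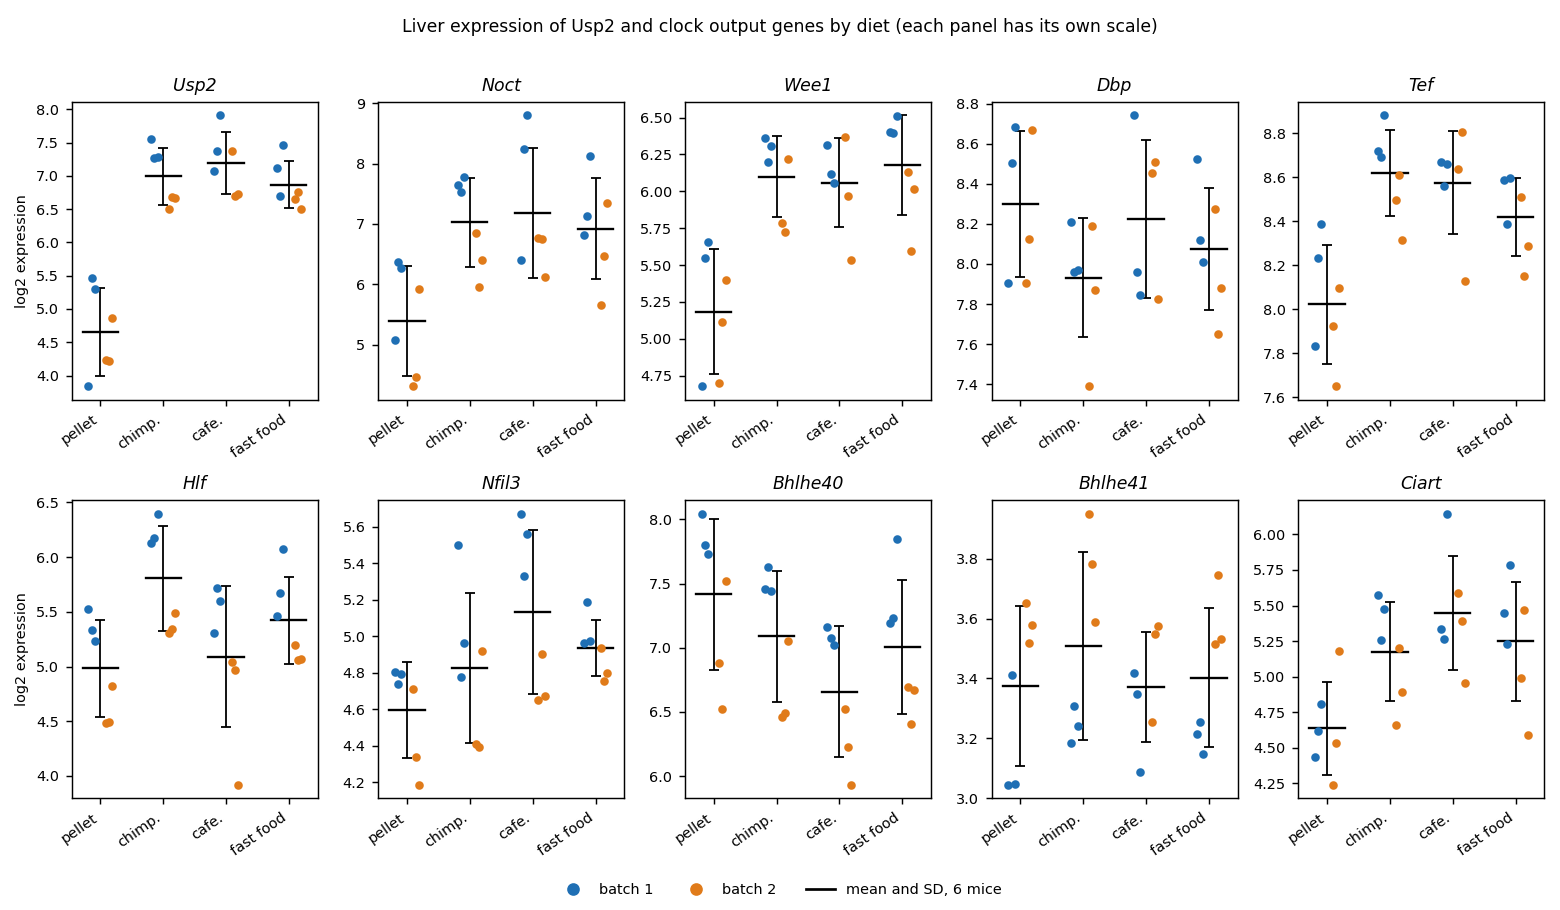
Log2 expression (y axis, own scale in each panel) of the 10 genes in each mouse by diet (x axis), coloured by batch (1 blue, 2 orange), and a line and whiskers at the mean and SD (6 mice). Pellet mice lay at 3.84 to 5.46 for Usp2, under the 6.50 to 7.91 of all other mice, while the other 9 genes overlapped between pellet and the rest.

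Noct (nocturnin), an enzyme related to the deadenylases known to cycle strongly in rodent liver, had a similar order of diets with a wider spread. It ran from 4.31 to 6.37 (median 5.49) under pellets and from 5.96 to 7.77 (median 7.19) under the chimpanzee diet. It ran from 6.13 to 8.80 (median 6.76) under cafeteria food and from 5.66 to 8.13 (median 6.97) under fast food. Of the 18 mice on other diets, 3 lay within the pellet range. The human diets lay 1.65 ± 0.34 above pellet and the chimpanzee diet 1.62 ± 0.36. Noct also had the largest batch difference of the members, batch 2 lying 1.10 below batch 1.

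Wee1, a kinase that holds cells back from mitosis and a known E-box target of the clock in liver, ran from 4.68 to 5.66 (median 5.26) under pellets. It ran from 5.73 to 6.36 (median 6.21) under the chimpanzee diet, from 5.53 to 6.37 (median 6.08) under cafeteria food and from 5.60 to 6.51 (median 6.26) under fast food. Of the other 18 mice, 2 lay within the pellet range. The human diets lay 0.93 ± 0.15 above pellet, a 1.91-fold difference, and the chimpanzee diet 0.92 ± 0.16. The second Wee1 probe set gave 0.55 ± 0.13 and 0.54 ± 0.15.

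Dbp, Tef and Hlf form the PAR family of activators that bind the D-box. Dbp had means of 8.30 ± 0.37 (pellet), 7.93 ± 0.30 (chimpanzee), 8.22 ± 0.39 (cafeteria) and 8.08 ± 0.30 (fast food), and its range under pellets, 7.90 to 8.68, held 11 of the other 18 mice. Its human minus pellet difference was -0.15 ± 0.16 and its chimpanzee minus pellet difference -0.37 ± 0.18.

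Tef ran from 7.65 to 8.39 (median 8.01) under pellets and from 8.32 to 8.88 (median 8.65) under the chimpanzee diet. It ran from 8.13 to 8.80 (median 8.65) under cafeteria food and from 8.15 to 8.59 (median 8.45) under fast food. The human diets lay 0.48 ± 0.10 above pellet and the chimpanzee diet 0.60 ± 0.11, with 5 of 18 mice inside the pellet range. These values come from the brightest of 3 Tef probe sets, 1424175_at, and the probe sets disagreed in direction. Human minus pellet was -0.48 ± 0.16 for 1438033_at, which did not follow the first across mice (r = 0.02), and 0.33 ± 0.09 for 1450184_s_at (r = 0.58). The direction of the Tef difference therefore depends on the probe set.

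**Figure D2:**
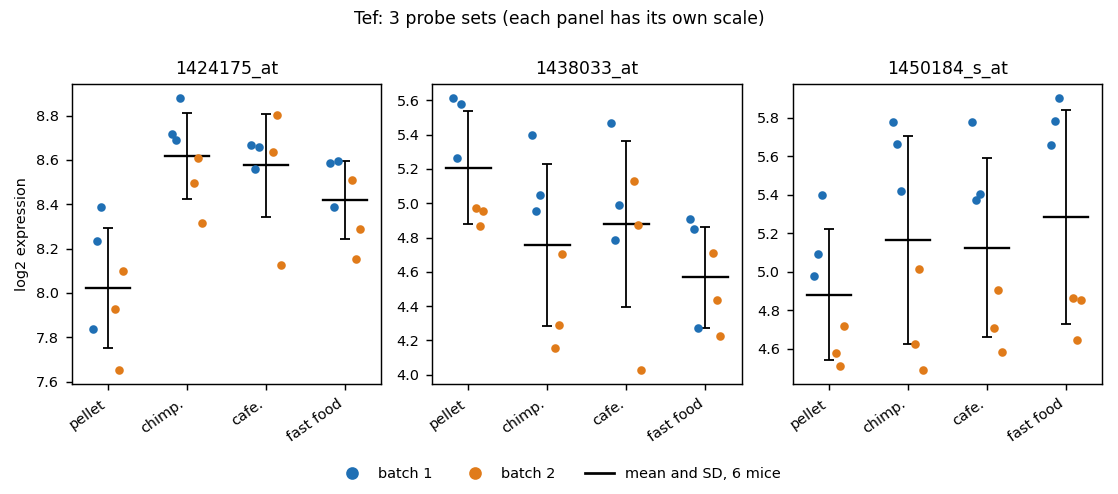
Log2 expression (y axis, own scale in each panel) of the 3 Tef probe sets by diet (x axis), 1 point per mouse coloured by batch (1 blue, 2 orange), and a line and whiskers at the mean and SD (6 mice). Pellet had the lowest mean for 1424175_at (8.02) and for 1450184_s_at (4.88), and the highest for 1438033_at (5.21).

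Hlf had its highest mean under the chimpanzee diet. It ran from 5.30 to 6.40 (median 5.81) in that group and from 4.48 to 5.52 (median 5.03) under pellets. It ran from 3.92 to 5.72 (median 5.17) under cafeteria food and from 5.06 to 6.07 (median 5.33) under fast food. Within batch 1 all 3 chimpanzee mice (6.13 to 6.40) lay above all other mice, and within batch 2 they again lay highest (5.30 to 5.49). This order did not hold in the second Hlf probe set. There fast food batch 1 replicate 3 (5.76) lay above the highest chimpanzee mouse of its batch (5.52). Cafeteria batch 2 replicate 1 (5.14) likewise lay above the highest chimpanzee mouse of batch 2 (5.10). The chimpanzee diet lay 0.82 ± 0.14 above pellet, and the human diets 0.27 ± 0.15.

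Nfil3, a repressor that competes with the PAR family for the D-box, had means of 4.60 ± 0.27 (pellet), 4.83 ± 0.41 (chimpanzee), 5.13 ± 0.45 (cafeteria) and 4.94 ± 0.15 (fast food). Its human minus pellet difference was 0.44 ± 0.10 and its chimpanzee minus pellet difference 0.23 ± 0.13.

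The remaining members repress E-box driven transcription. Ciart, which acts on CLOCK and BMAL1, ran from 4.24 to 5.18 (median 4.58) under pellets and from 4.66 to 5.57 (median 5.23) under the chimpanzee diet. It ran from 4.96 to 6.14 (median 5.36) under cafeteria food and from 4.59 to 5.78 (median 5.34) under fast food. The human diets lay 0.71 ± 0.17 above pellet and the chimpanzee diet 0.54 ± 0.18. The chimpanzee difference was 0.81 in batch 1 and 0.27 in batch 2.

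Bhlhe40 (DEC1) went the other way, with its highest mean under pellets. It ran from 6.52 to 8.04 (median 7.63) under pellets and from 6.46 to 7.63 (median 7.25) under the chimpanzee diet. It ran from 5.93 to 7.17 (median 6.77) under cafeteria food and from 6.40 to 7.85 (median 6.94) under fast food. Groups overlapped widely across batches, since batch 2 lay 0.85 below batch 1. In batch 1 the 3 cafeteria mice (7.02 to 7.17) lay below every chimpanzee mouse (7.45 to 7.63), and in batch 2 these groups overlapped (5.93 to 6.53 and 6.46 to 7.05). The human diets lay 0.58 ± 0.14 below pellet on the log2 scale.

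Bhlhe41 (DEC2), the paralog of Bhlhe40, lay at 3.37 to 3.51 on average in every diet, close to the filter level of 3.15. Its human minus pellet difference was 0.01 ± 0.08, and 1 further probe set of it, at 2.68 to 3.10, did not pass the filter.

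Over the 10 members, 8 had a higher mean under the human diets than under pellets, and Dbp and Bhlhe40 a lower one. The same held for the chimpanzee diet. The median difference of the members was 0.46 for the human diets and 0.57 for the chimpanzee diet, where that of all genes was -0.0057 and -0.0044. The members were chosen on differences of this kind, so nothing is read from these values.

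RNA quality and cell markers moved with part of this contrast. The 3′ minus 5′ gap of the beta-actin control probe sets, which widens as RNA breaks down, averaged 0.754 (pellet), 1.08 (chimpanzee), 0.906 (cafeteria) and 0.800 (fast food). With that gap as a covariate, all 10 differences from pellets kept their sign in both comparisons. Usp2 then lay 2.19 ± 0.20 above pellet under the human diets and 2.00 ± 0.30 under the chimpanzee diet, and Ciart 0.61 ± 0.18 and 0.31 ± 0.27. Of 6 Kupffer cell markers, 4 passed in limma as lower under the chimpanzee diet than under pellets, as did 7.43% of all genes. They were Clec4f, Cd68, Csf1r and Vsig4, lower by 0.68 to 1.16. Between the human diets and pellets 0 passed (2 at an unadjusted p under 0.05), where 4.98% of all genes did. The median difference of the 6 was -0.31 there. The mean level of those 6 markers ran from 5.70 to 6.42 in pellet mice, from 4.98 to 6.01 in chimpanzee mice, from 4.96 to 6.37 in cafeteria mice and from 5.62 to 6.51 in fast food mice. The part of these markers in the members' differences was not tested.

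The comparison the study was built for, human diets against the chimpanzee diet, was tested with limma on 18 mice. None of the 10 members passed (0 of 10 at an adjusted p of 0.05, 1 at an unadjusted p under 0.05), where 1.49% of all genes did. For Usp2 the difference was 0.04 ± 0.14, with a 95% interval of -0.26 to 0.34 and an adjusted p of 0.946 in limma. The interval for Wee1 ran from -0.22 to 0.25, and that for Noct from -0.59 to 0.64. Because the members were chosen on differences from pellets, those differences are not weighed against these intervals. Dbp (0.22 ± 0.15), Nfil3 (0.21 ± 0.12), Ciart (0.17 ± 0.15), Tef (-0.12 ± 0.09), Bhlhe41 (-0.12 ± 0.08) and Bhlhe40 (-0.26 ± 0.13) did not pass either.

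Hlf came closest, with human diets 0.55 ± 0.15 below the chimpanzee diet on the log2 scale, a 1.46-fold difference (95% interval 1.18 to 1.81, adjusted p = 0.0661 in limma). The difference was -0.59 in batch 1 and -0.51 in batch 2. The second Hlf probe set gave -0.29 ± 0.14. The difference passed after cyclic loess (-0.62, adjusted p = 0.00359) and quantile normalization (-0.65, adjusted p = 0.0231). It also passed with array weights (-0.51, adjusted p = 0.0038) and with each array's 90th percentile as a covariate (-0.66, adjusted p = 0.00169). Without the 4 arrays of lowest range it passed as well (adjusted p = 0.0172 in limma). It did not pass in limma with the beta-actin gap as a covariate (-0.63, adjusted p = 0.423). Nor did it pass without the filter (0.0919), with every probe set by itself (0.0846) or with a replicate block (0.0805). The same held for an intensity trend (0.0742), batch left out (0.592), batch 1 alone (0.0718) and batch 2 alone (0.975). The methods' model gave an adjusted p of 0.111. Its unadjusted p of 0.00358 passed the unadjusted threshold of 0.01 that the study used. Over all alternatives run, the difference stayed between -0.66 and -0.46, and the adjusted p of limma or of the methods' model between 0.00169 and 0.975. Without cafeteria batch 2 replicate 3, whose Hlf level of 3.92 was the lowest of the 24 mice, the difference was -0.46 (adjusted p = 0.0106). Without fast food batch 2 replicate 2 it was -0.57 (adjusted p = 0.0478). In the remaining runs of the 18 that left 1 mouse out, Hlf did not pass. After diet and batch means were removed, Hlf varied with each array's 90th percentile (r = 0.76 over 24 arrays, Bhlhe40 0.66, Bhlhe41 -0.67).

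**Figure D3:**
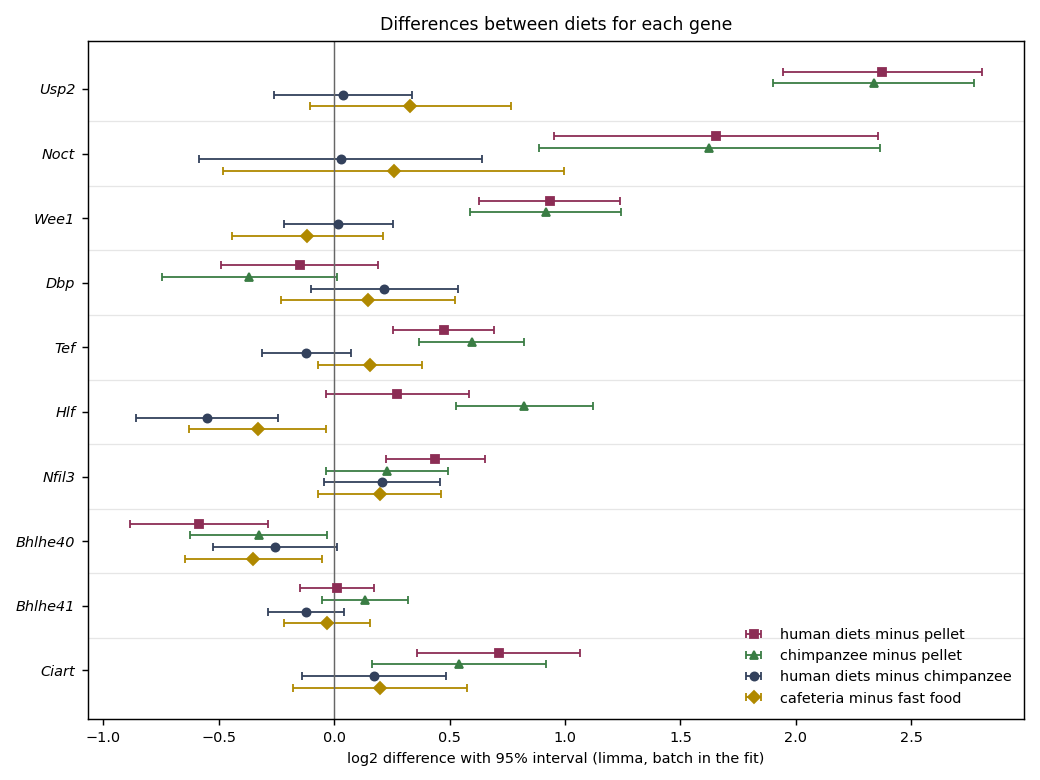
Log2 differences (x axis) with 95% intervals from limma for each gene (y axis), for human diets minus pellet, chimpanzee minus pellet, human diets minus chimpanzee, and cafeteria minus fast food. Usp2 was chosen on its pellet differences, whose intervals began at 1.90 or above. The human minus chimpanzee interval ran from -0.26 to 0.34 for Usp2 and from -0.86 to -0.24 for Hlf.

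Cafeteria and fast food were compared with limma within a fit of all 24 mice. None of the members passed (0 of 10, 2 at an unadjusted p under 0.05), and 0.00747% of all genes did. The largest differences were those of Bhlhe40 (-0.35 ± 0.14, 95% interval -0.65 to -0.05, adjusted p = 0.895 in limma) and Hlf (-0.33 ± 0.14, -0.63 to -0.03, adjusted p = 0.919 in limma), both lower under cafeteria food. For Usp2 the difference was 0.33 ± 0.21, with an interval of -0.11 to 0.76. The interval for Noct was wide, from -0.48 to 1.00.

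Whether diet differences changed between batches was tested as an interaction in limma. None of the 10 members passed (0 of 10, 0 at an unadjusted p under 0.05, largest F that of Nfil3 at 1.96), and 0% of all genes did. Nfil3 was 0.48 higher under cafeteria than fast food in batch 1 and -0.09 in batch 2.

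Some of these genes also varied together across mice once diet and batch means were removed. Correlations were taken over 24 mice for 45 pairs, with diet and batch means removed as separate terms. Any change of a diet difference between batches therefore stayed in the values. A permutation test exchanged mice within each diet and batch (two-sided, 100000 draws). This test was added after the values were seen. How often pairs drawn from all genes correlate as strongly on these arrays was not computed. Nothing is therefore called particular to these members. Usp2 and Ciart correlated at r = 0.64 (Spearman rho = 0.68), with permutation p = 0.00012 for r (adjusted 0.0054) and 0.0002 for rho (adjusted 0.009). The value was 0.65 in batch 1 and 0.76 in batch 2, and 0.76 without the 2 mice farthest from the median of Usp2. Of the other pairs, Wee1 and Dbp passed for r (0.70, permutation p = 0.00278, adjusted 0.0417) but not for rho (0.65, permutation p = 0.00456, adjusted 0.0632). They stood at 0.72 in batch 1, 0.69 in batch 2 and 0.63 without the 2 farthest mice. Hlf and Bhlhe40 (r = 0.62, permutation p = 0.00265, adjusted 0.0417; rho = 0.71, p = 0.00301, adjusted 0.0632) stood at 0.25 once the 90th percentile of the arrays was also removed. Their r was 0.62 in batch 1, 0.63 in batch 2 and 0.61 without the 2 farthest mice. For Usp2 and Ciart the value with that percentile removed was 0.62, and for Wee1 and Dbp 0.68. Dbp with Tef (r = 0.66, rho = 0.62, adjusted permutation p = 0.0611 and 0.0632), Usp2 with Noct (r = 0.63, rho = 0.55, adjusted permutation p = 0.0716 and 0.234) and Usp2 with Wee1 (r = 0.61, rho = 0.49, adjusted permutation p = 0.258 and 0.234) did not pass.

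**Figure D4:**
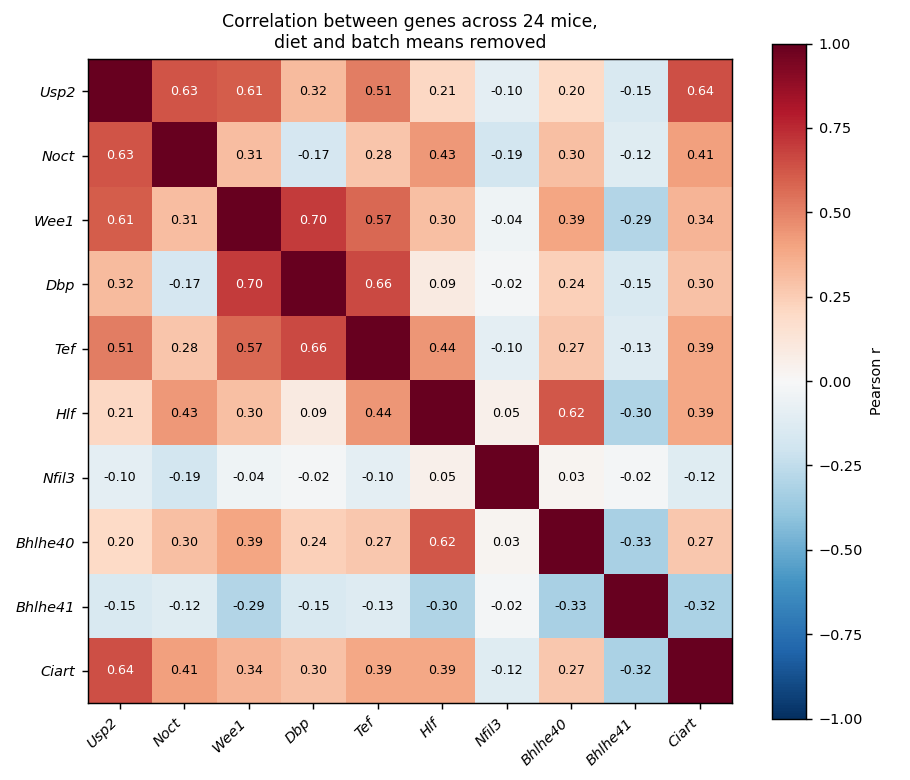
Pearson r (colour and number) between each pair of the 10 genes (both axes) across 24 mice, with diet and batch means removed. Values ran from -0.33 (Bhlhe40 and Bhlhe41) to 0.70 (Wee1 and Dbp).

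Over all 24 mice with batch means removed, where the pellet gap sets most of the pattern, the genes most like Usp2 were Marveld1 (r = 0.92), Mcrip2 (0.91), Pdxk (0.89), Rhobtb1 (0.89) and Gde1 (0.88). The most opposed were Slc30a10 (-0.90), Ethe1 (-0.90) and Jpt2 (-0.90). With diet means removed as well, these values lay between 0.21 and 0.57 for the first 5 and between -0.39 and -0.10 for the last 3. Likeness is a description over mice that share diets and arrays.

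Of 16 core clock genes, 14 were tested. Against pellets, 3 lay higher under the human diets (2.15% of all genes) and 2 lower (2.82%), with a list median of 0.11. Under the chimpanzee diet 3 lay higher (2.93% of all genes) and 1 lower (7.43%), with a list median of 0.02. Per1 (0.73 ± 0.13) and Per2 (0.91 ± 0.19), repressors of the loop, were higher under the human diets. Nr1d1 (-1.40 ± 0.18), the REV-ERB repressor, and Clock (-0.38 ± 0.08) were lower. The remaining gene counted as higher was Cry1, a repressor too, which lay at 2.91 ± 0.13 under pellets, below the filter level, and at 3.50 to 3.57 on average under the other diets. It passed the filter through those diets, so its counting among the higher genes supports nothing. Between human diets and the chimpanzee diet, 0 of the 14 passed in limma (1 at an unadjusted p under 0.05), where 1.49% of all genes did.

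Genes known to depend on Dbp, Tef and Hlf in liver were tested for 14 of 18, and 8 lay higher under the human diets than under pellets (2.15% of all genes) and 0 lower (2.82%), with a median of 0.60 against -0.0057 for all genes. Under the chimpanzee diet 6 lay higher than under pellets (2.93% of all genes) and 1 lower (7.43%), with a median of 0.47. The lower gene was Cyp2b10, a drug-metabolizing enzyme, at -2.67 ± 0.25. Under the human diets, Nr1i3, the drug receptor CAR, was higher than under pellets by 0.94 ± 0.12. Pdxk, which makes the active form of vitamin B6, was higher there by 0.70 ± 0.09. Cyp4a14 and Acot1 are enzymes of fatty acid handling that also respond to the lipid receptor PPARA. Under the human diets they were higher than under pellets by 5.65 ± 0.37 and 2.06 ± 0.36. Their pellet levels, 3.26 ± 0.42 and 3.70 ± 0.53, lay close to the filter level. Between human diets and the chimpanzee diet, 2 of the 14 passed in limma (1.49% of all genes), both higher under human diets. They were Cyp4a14 (2.72 ± 0.43, adjusted p = 0.00364) and Cyp2b10 (2.39 ± 0.20, adjusted p = 2.15e-06). Of glucocorticoid-responsive genes, 15 of 16 were tested. Under human diets 1 was higher than under pellets (2.15% of all genes), Pck1 of gluconeogenesis (0.79 ± 0.14). The 1 lower gene (2.82% of all genes) was Lcn2 (-0.60 ± 0.17). Under the chimpanzee diet 4 were higher than under pellets (2.93% of all genes) and 0 lower (7.43%). These 4 were Tsc22d3 (1.25 ± 0.23), Fkbp5 (0.86 ± 0.15), Pck1 (0.57 ± 0.14) and Zbtb16 (0.46 ± 0.15). The other 11 did not pass and went both ways, from -1.06 ± 0.41 (Dusp1) to 1.73 ± 0.60 (Igfbp1). Tsc22d3, Zbtb16 and Igfbp1 were chosen after their values were seen. Fkbp5 stood at 0.13 ± 0.13 between human diets and pellets. Against the chimpanzee diet, where 1.49% of all genes passed in limma, 1 gene was higher and 2 were lower under human diets. Fkbp5 (-0.74 ± 0.14, adjusted p = 0.0105 in limma) and Lcn2 (-1.28 ± 0.26, adjusted p = 0.0187) were lower, and Dusp1 (1.08 ± 0.23, adjusted p = 0.0235) higher.

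**Figure D5:**
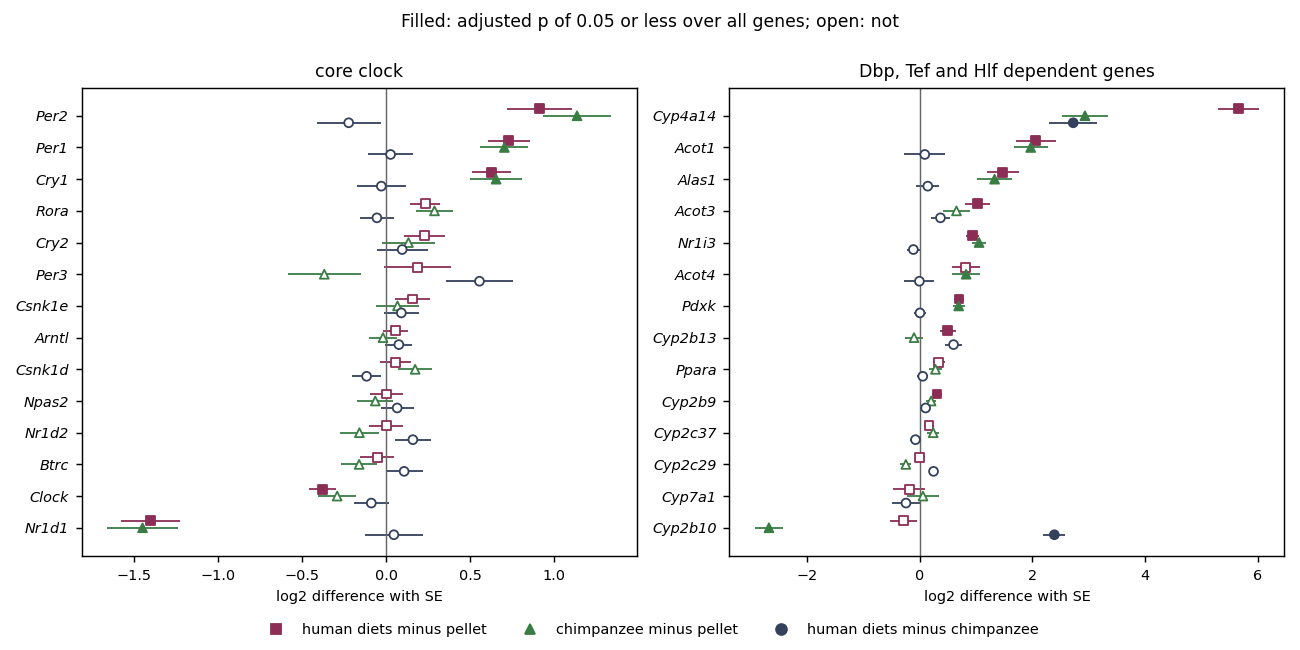
Log2 differences with SE (x axis) of core clock genes (left) and genes that depend on Dbp, Tef and Hlf (right), for 3 comparisons of diets, with filled symbols at an adjusted p of 0.05 or less over all genes. Per1, Per2 and Nr1d1 passed in both pellet comparisons, as did Cry1, which lay below the filter level under pellets, and not between human diets and the chimpanzee diet, where Cyp4a14 and Cyp2b10 passed.

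The families of the effector genes were read in the same fits, in which 4.98% of all genes passed between human diets and pellets and 10.4% between the chimpanzee diet and pellets. Of 40 other ubiquitin-specific proteases tested, 0 passed in limma between human diets and pellets (1 at an unadjusted p under 0.05) and 1, Usp18, was lower under the chimpanzee diet than under pellets (-1.34 ± 0.29). Of 10 deadenylases and relatives of Noct, 0 passed in limma under human diets (1 at an unadjusted p under 0.05) and 1, Parn, was lower under the chimpanzee diet (-0.57 ± 0.14). These 2 genes were chosen after their values were seen. Of 10 genes of mitotic entry, the setting in which Wee1 acts, 0 passed in limma in either comparison (2 at an unadjusted p under 0.05 in each). The medians of the 3 families lay between -0.20 and 0.04 in these comparisons with pellets. Lists of 10 or 40 genes are small beside these shares, and nothing is called particular to them.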

How the data were processed

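Total RNA of dissected liver from 24 mice was hybridized to Affymetrix mouse genome arrays in 2 batches with equal numbers of each diet. The authors deposited log2 expression values per probe set, made by the robust multichip average (rma) in the Bioconductor package affy, a method that corrects background, normalizes probes by quantiles and summarizes them. Arrays normalized by quantiles as 1 set would be nearly alike in distribution, whereas the deposited liver arrays are not (90th percentiles of 5.66 to 6.61). How this arose was not tested, and cyclic loess and quantile normalization of the deposited values were among the alternatives. The sources used here do not state the version of that package, nor if brain samples were normalized together with liver. Depth is not defined for arrays, and the number of mice limits the precision.

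Groups, batches and replicate numbers were taken from the sample titles. Littermates were spread over the diets, but no label gives the litter of a mouse, so p-values measure the spread between mice. Probe sets with 1 gene symbol in the platform annotation were used. A probe set was kept when above the median of the values (3.147) in at least 6 of 24 arrays, which left 25544 of 45101. A gene was read from its kept probe set of highest mean. The 10 members had 17 probe sets, of which 16 were kept, and 1 further probe set of Noct carried several symbols and was not used.

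Differences were fitted with limma 3.58.1 in R 4.3.3 (lmFit, eBayes) with batch as a covariate, two-sided, with Benjamini-Hochberg adjustment over all 13385 genes at 0.05. Human diets were pooled in fits of 18 mice against chimpanzee or pellet, following the study's methods. Other comparisons and the interaction used all 24 mice. The fits were also run on simulated data with known changes. Noise in those data was drawn independently for each gene and array. That run therefore could not test the effect of array-wide differences in range or RNA quality.

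The members, gene lists, tests and alternatives were chosen with earlier results of these data known. Named were all members with every probe set, up to 6 core clock genes and up to 4 genes of each other list that passed against pellets with the smallest p, any list gene that passed against the chimpanzee diet, and the 5 genes most and 3 least like Usp2. Lists also covered markers of 8 cell types. Sinusoidal endothelial (5 tested), stellate (4), bile duct (3), lymphocyte (2) and pancreas (2) markers had 0 genes past the threshold in limma in the 4 diet comparisons. At most 1 gene of a list had an unadjusted p under 0.05 in a comparison. Of all genes 0.00747% to 10.4% passed in these comparisons, so for lists this small nothing is read from 0. Alternatives were cyclic loess, quantile normalization, no filter, every probe set by itself, batch left out, each batch alone, a replicate block, the 90th percentile or the beta-actin gap as a covariate, omission of the 4 arrays of lowest range, array weights, an intensity trend, each mouse left out, and the methods' two-way linear model. In the latter the detection filter was replaced by values above the median in 2 arrays.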

Additional observations from a re-analysis of the deposited data

Results flagged for a closer look

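Tef in cafeteria batch 2 replicate 3 had a level of 8.13, apart from and below the other 5 cafeteria mice, of which the nearest lay at 8.56. This mouse was singled out because that gap took up 0.641 of the range of its group. In all, 40 groups of 6 mice (10 genes in 4 diets) were checked, and chance singles out about 1 in 20 such groups. The same mouse had the lowest Hlf level (3.92) of all 24. Its array also had the lowest 90th percentile of all 24 (5.66). With diet and batch means removed, r with that percentile was 0.76 for Hlf and 0.40 for Tef. The part of the array's range in these 2 levels was not tested.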

How the results depend on the processing

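In limma, the number of members past the threshold between human diets and the chimpanzee diet was 0 as reported. It was 2 (Hlf and Bhlhe40) after cyclic loess, 2 (the same pair) with the 90th percentile as a covariate, and 1 (Hlf) after quantile normalization, without the 4 arrays of lowest range, with array weights, and under the methods' model at its unadjusted threshold. With 1 mouse left out it ran from 0 to 1. Against pellets, the contrast on which the members were chosen, the counts are a description and their stability supports nothing. That choice favours high counts, so they are not to be read against the shares of all genes. The counts as reported are those of the fits behind the differences given above. The human diets had 7 as reported (4.98% of all genes passed), 8 with array weights or without the 4 arrays of lowest range, 5 without batch in the fit, 3 in batch 1 alone, 1 in batch 2 alone, 4 with the beta-actin gap as a covariate, and 5 to 8 with 1 mouse left out. The chimpanzee diet had 5 as reported (10.4% of all genes passed), 6 after either normalization, in batch 1 alone, with the 90th percentile or with array weights, 3 without batch in the fit, 1 in batch 2 alone, 3 with the beta-actin gap, and 5 to 6 with 1 mouse left out. The counts for cafeteria against fast food and for the interaction were 0 throughout, also with each mouse left out (0 to 0). Why the counts moved was not tested, beyond the fewer mice of a single batch.

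Leaving out pellet batch 1 replicate 1 removed Ciart and Bhlhe40 from the human diet count, pellet batch 2 replicate 1 removed Ciart, pellet batch 2 replicate 3 removed Bhlhe40, and leaving out cafeteria batch 2 replicate 3 added Hlf. Ciart joined the chimpanzee diet count without chimpanzee batch 2 replicate 1, cafeteria batch 1 replicate 3, cafeteria batch 2 replicate 3 or pellet batch 2 replicate 3.

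Some differences near 0 changed sign, and none of these passed. Between human diets and the chimpanzee diet, Usp2 was -0.061 after cyclic loess, -0.048 after quantile normalization, -0.093 in batch 1, -0.011 with the 90th percentile, -0.027 without the 4 arrays, -0.077 with array weights and -0.18 under the methods' model, which took its other probe set. Noct was -0.073, -0.057, -0.059 and -0.048 under the first 4 of these settings. Wee1 was -0.067 after either normalization, -0.071 with the 90th percentile, -0.021 without the 4 arrays and -0.041 with the beta-actin gap, and Bhlhe41 was 0.00095 in batch 1. With 1 mouse left out, Usp2 ran from -0.023 to 0.097, Noct from -0.086 to 0.15 and Wee1 from -0.024 to 0.084. Between cafeteria and fast food, batch 1 gave -0.035 for Dbp and 0.077 for Bhlhe41, and batch 2 gave 0.043 for Wee1 and -0.087 for Nfil3. Array weights gave 0.059 for Bhlhe41, which ran from -0.081 to 0.033 with 1 mouse left out.

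Replicate numbers gave no clear sign of pairing the mice. Over 36 same-numbered pairs within a batch, deviations from group means correlated at -0.63 to 0.41 (median 0.01), with 12 pairs above 0.1. A weak pairing could not be seen in this way. With the number as a replicate block, 0 members passed between human diets and the chimpanzee diet, 7 and 5 against pellets, and 0 in the other 2 comparisons.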
